A study of Mus musculus with 8 samples.

Results

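The genes of respiratory complex I, the NADH:ubiquinone oxidoreductase of the inner mitochondrial membrane, were followed in lung endothelial cells after deletion of a subunit of complex III. Members were taken by symbol from the table of 43430 gene IDs. They comprised every gene whose symbol starts with Nduf followed by a, b, c, s, v or ab and a number, and every gene whose symbol starts with mt-Nd. Assembly factors (Ndufaf) and pseudogenes were left out. This gave 45 genes, 38 of them in the nuclear genome and 7 in the mitochondrial genome, and all 45 passed the filter on low counts. Of the 38 nuclear members, 36 are subunits of complex I in the current view. The other 2, Ndufa4 and Ndufa4l2, carry the family name but belong to or act near cytochrome c oxidase, and they are kept apart below. The processed pseudogenes Ndufa11b, Ndufab1-ps, Ndufb4c and Ndufs6b matched the symbol pattern, were left out, and held at most 1 count over all 8 libraries.

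Complex I takes electrons from NADH in its matrix arm, passes them along iron-sulfur clusters to ubiquinone, and pumps protons through its membrane arm. Complex III takes the electrons on from reduced ubiquinone, and the complexes can associate in supercomplexes. The mitochondrial genome encodes the core of the membrane arm, the nuclear genome encodes the core of the matrix arm, and a shell of nuclear-encoded supernumerary subunits surrounds both. Mitochondrial messenger RNAs are cut from long polycistronic transcripts by excision of the tRNAs that lie between them.

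The 8 libraries came from lungs of C57BL/6 mice at postnatal day 15, from cells sorted for the endothelial surface protein CD31, and were total RNA. The 4 WT libraries are labelled wild type, and the 4 KO libraries carry a conditional endothelial deletion of QPC, a subunit of complex III that is here equated with the product of Uqcrq. The labels give both groups the same protocol of tamoxifen, the drug that induces the deletion, from postnatal day 0 to day 4. They name neither the Cre line nor the number of animals behind a library, so p-values reflect only the scatter among these samples, part of which may be technical. Total counts ran from 6407924 to 11951816 in WT and from 11209714 to 13981329 in KO, the lowest being WT replicate 3. Genes of the mitochondrial chromosome took 2.64% to 3.39% of counts in WT and 3.22% to 4.77% in KO. The summed level of 10 endothelial markers, Pecam1 and Cdh5 among them, was 14512 to 17385 CPM (counts per 1000000 of the library's scaled total) in WT and 12739 to 16360 in KO. Of these 10 markers 0 were called higher and 2 lower in KO (calls are defined below), while 1.39% of all genes tested were called lower. The 2 were Tek and Erg, at log2 fold changes of KO over WT of -0.69 and -0.67. In 3 of the 10, Tek, Erg and Cdh5, the highest KO value was under the lowest WT value. The reverse held for 0 of the 10. Of all genes tested, 4.67% were separated in the lower direction and 6.94% in the higher. The median over the 10 markers was -0.07. RNA of other lung cells was also present: the summed level of 8 alveolar type 2 markers was 3684 to 21841 CPM in WT and 3558 to 15950 in KO, and it exceeded the endothelial sum in WT replicates 1 and 4 and KO replicate 3.

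Values by library are given below in the order of replicates 1 to 4. Uqcrq itself was measured at 26.3, 24.5, 26.8 and 31.5 CPM in WT and at 1.59, 15.6, 9.57 and 14.0 CPM in KO. The groups did not overlap, the KO mean was 37.3% of the WT mean, and transcript remained in every KO library, least in KO replicate 1. Its fitted log2 fold change was -1.42 (SE 0.53). It missed the threshold in the fit over all genes (edgeR quasi-likelihood test, Benjamini-Hochberg adjusted p = 0.179), while the exact two-sided permutation test of this gene alone gave p = 0.02857, the smallest that 4 against 4 libraries allow. In bulk samples, a change in the number of cells that carry a transcript and a change in transcript per cell cannot be told apart, here and in every comparison that follows.

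Of the 45 members, 3 were called higher in KO and 0 lower: mt-Nd1, mt-Nd2 and Ndufa11. A call is an adjusted p under 0.05 in the fit over the 12689 genes tested, where 2.25% of genes were called higher and 1.39% lower, 3.63% in all. By origin, 2 of the 7 mitochondrial members were called, and 1 of the 38 nuclear members, a share of 2.63% that is close to the background of 2.25%. Calls depend on depth: in a library mt-Nd1 and mt-Nd2 had 13763 to 86454 reads and nuclear subunits 73 to 2205. Ndufa10 and Ndufb7, each at a log2 fold change of 0.67, were not called, while mt-Nd2 was called at 0.48. The median over the 38 nuclear members was 0.22. The shares called therefore do not compare the size of change by origin. The fitted log2 fold change was above 0 for 43 of 45 members, against 51.0% of all genes. These signs are not independent between members, since all come from the same 8 libraries. They also moved with the processing: once each library's trend on exonic length and GC content had been removed, 18 of 38 nuclear and 4 of 7 mitochondrial members were above 0, and with library totals as the only scaling 32 of 38 nuclear members were. The median over all genes moved as well, to -0.098 with the trend removed, so 0 is not the background there. Relative to the median of all genes, the nuclear median was then higher by 0.09 and the mitochondrial median by 0.13. With library totals the nuclear median was higher by 0.20. The share of all genes above 0 in these fits is not given here. The plot of fold changes by role shows the members described.

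**Figure D1:**
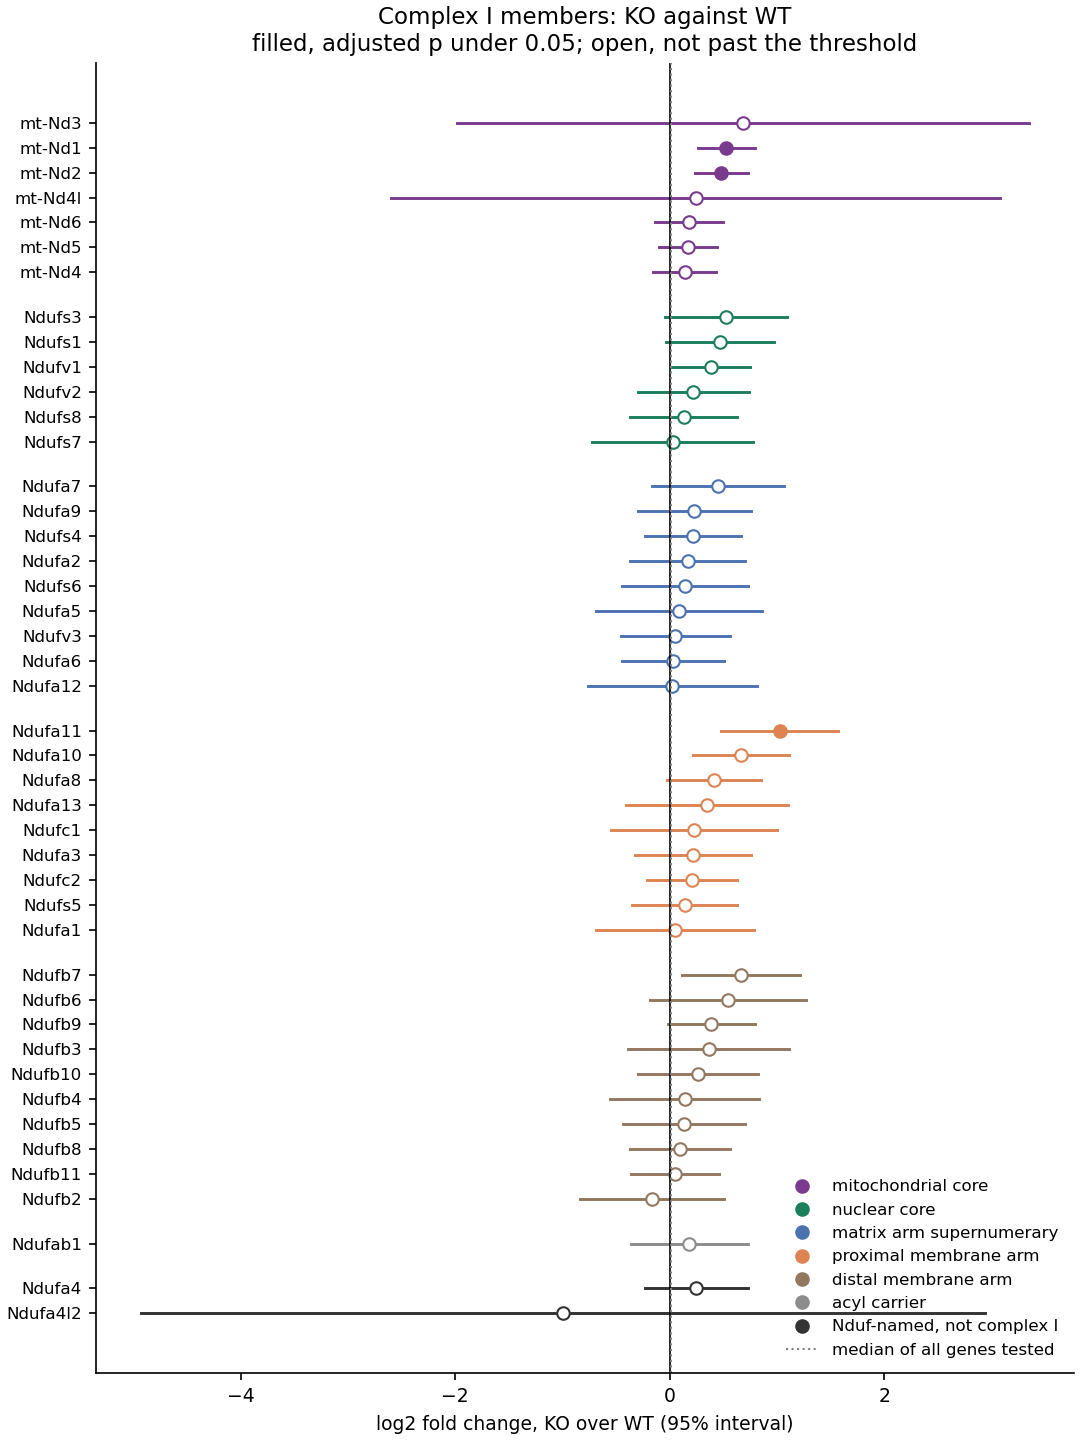
Fitted log2 fold change of KO over WT for the members, grouped by role, with 95% intervals from the edgeR fit. Filled points are mt-Nd1, mt-Nd2 and Ndufa11, the 3 members with an adjusted p under 0.05, and the points below 0 are Ndufb2 and Ndufa4l2 in this fit, with more below 0 once the length and GC trend is removed. The median of all genes is then below 0 as well.

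The 7 mitochondrial members are the membrane core of the complex. mt-Nd1 sits where the membrane arm meets the quinone site, mt-Nd2, mt-Nd4 and mt-Nd5 are the antiporter-like proton-pumping subunits, and mt-Nd3, mt-Nd4l and mt-Nd6 are small subunits between them. mt-Nd1 and mt-Nd2, which lie next to each other near the start of the heavy-strand gene series, rose 1.44-fold and 1.397-fold in KO. mt-Nd4, mt-Nd5 and mt-Nd6, farther along, had fitted log2 fold changes of 0.14 to 0.18 and were not called. mt-Nd3 and mt-Nd4l were counted at under 8 CPM in every library.

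mt-Nd1 (chrM:2751-3707, + strand; coordinates here and below are from GENCODE M21 on GRCm38, the build called mm10) was measured at 4814, 4221, 3710 and 4456 CPM in WT and at 7146, 6768, 5220 and 5671 CPM in KO. The groups did not overlap, as was true of 6.94% of all genes tested in this direction, and KO replicates 1 and 2 were the highest. The log2 fold change was 0.53 (SE 0.12, adjusted p = 0.0253, edgeR). mt-Nd2 (chrM:3914-4951, + strand) was measured at 2505, 2046, 2057 and 2391 CPM in WT and at 3558, 3260, 2921 and 2836 CPM in KO. Here too all KO libraries lay above all WT libraries, with a log2 fold change of 0.48 (SE 0.12, adjusted p = 0.0309, edgeR). Both calls were lost, with fold changes of 0.33 and 0.31, when the length and GC trend was removed. With any of WT replicates 2, 3 and 4 or KO replicates 1 and 2 left out, neither was called; mt-Nd2 was also not called without KO replicate 3. Over these single omissions mt-Nd1 stayed between 0.46 and 0.60 and mt-Nd2 between 0.42 and 0.54.

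mt-Nd5 (chrM:11742-13565, + strand) was measured at 2276, 1918, 1686 and 2159 CPM in WT and at 2200, 2578, 1935 and 2358 CPM in KO. The groups overlapped, and the log2 fold change was 0.17, with a 95% interval of -0.10 to 0.44 (adjusted p = 0.629, edgeR). mt-Nd4 (chrM:10167-11544, + strand) was measured at 1738, 1393, 1316 and 1582 CPM in WT and at 1372, 2051, 1589 and 1637 CPM in KO, so that KO replicate 1 was the second lowest library and KO replicate 2 the highest. Its log2 fold change was 0.14, with an interval of -0.15 to 0.43 (adjusted p = 0.767, edgeR). mt-Nd6 (chrM:13552-14070), the only protein gene on the light strand, was measured at 737, 658, 479 and 647 CPM in WT and at 737, 845, 595 and 675 CPM in KO. The groups overlapped, WT replicate 3 was the lowest, and the log2 fold change was 0.18, with an interval of -0.14 to 0.50 (adjusted p = 0.706, edgeR). Fitted values for mt-Nd4 and mt-Nd6 were just below 0, at -0.049 and -0.047, once the length and GC trend was taken out.

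**Figure D2:**
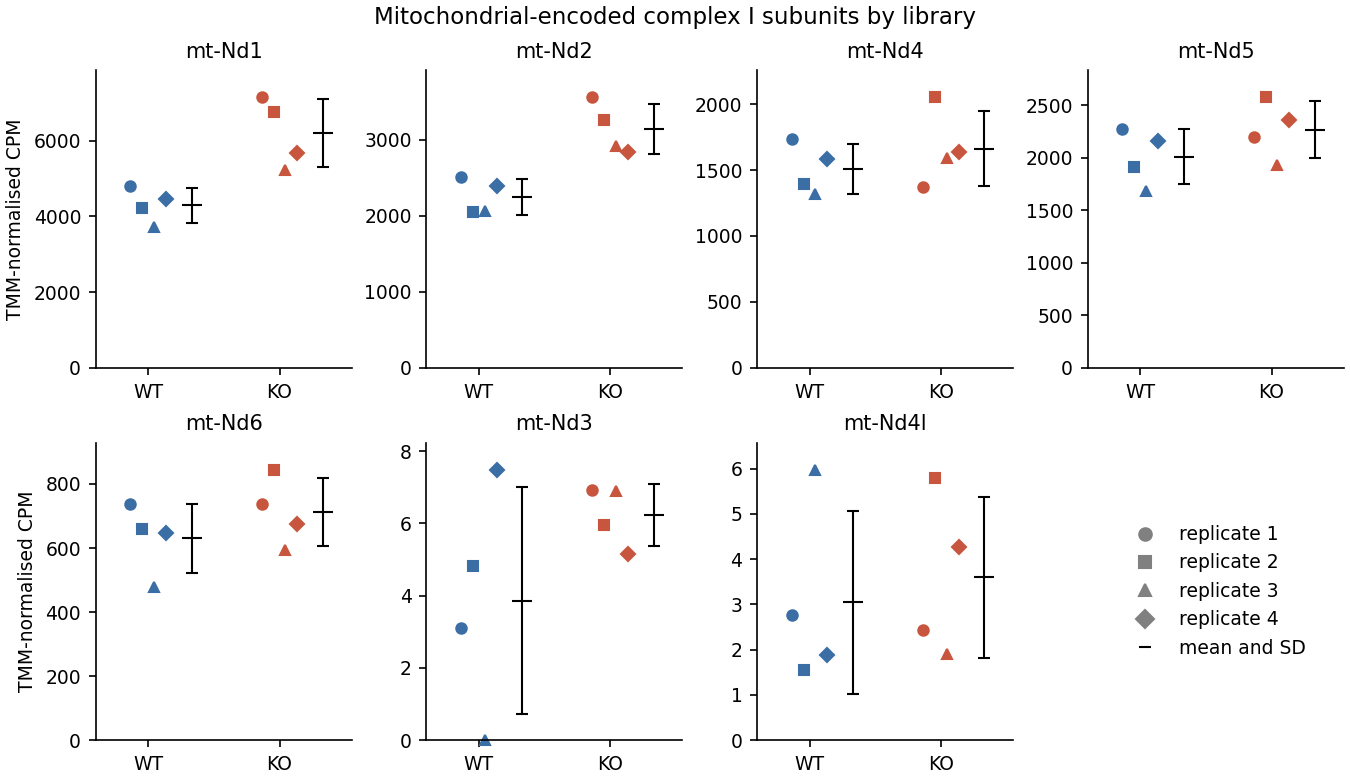
TMM-normalised CPM of the 7 mitochondrial members in each WT and KO library, each panel from 0, with replicate numbers as marker shapes and the mean and SD of 4 libraries as bars. KO libraries sit above all WT libraries for mt-Nd1 and mt-Nd2, and the groups overlap for the other 5, of which mt-Nd3 and mt-Nd4l stay under 8 CPM.

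Because mt-Nd1 and mt-Nd5 are counted in the same libraries, their ratio does not depend on library scaling. mt-Nd1 over mt-Nd5 was 2.064 to 2.201 in WT and 3.248, 2.625, 2.698 and 2.405 in KO, without overlap. mt-Nd1 over mt-Nd4 was 2.77, 3.03, 2.82 and 2.82 in WT and 5.21, 3.30, 3.29 and 3.47 in KO, also without overlap. The ratio of mt-Nd1 to its neighbour mt-Nd2 overlapped between the groups, at 1.80 to 2.06 in WT and 1.79 to 2.08 in KO, as did mt-Nd4 over mt-Nd5 and mt-Nd6 over mt-Nd5. For mt-Nd2 the separation was less clear. mt-Nd2 over mt-Nd4 was 1.44 to 1.56 in WT and 1.59 to 2.59 in KO, without overlap, while mt-Nd2 over mt-Nd5 was 1.067 to 1.22 in WT and 1.203 to 1.617 in KO, with KO replicate 4 below WT replicate 3. These ratios were chosen after the levels had been seen and are given as a description, with no test. They show unequal change between the members, not that either member of a ratio was unchanged.

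The other genes of the mitochondrial genome showed this contrast in part. mt-Co1, the catalytic core of cytochrome c oxidase and the next protein gene after mt-Nd2, rose with a log2 fold change of 0.60 (SE 0.13, adjusted p = 0.0175, edgeR), and was the only one called of the 6 mitochondrial protein genes outside complex I. Its level was 8872, 7096, 6786 and 8687 CPM in WT and 13042, 14268, 9974 and 10526 CPM in KO. mt-Cytb, the last protein gene and the mitochondrial subunit of complex III, had a log2 fold change of 0.10, with an interval of -0.20 to 0.40, and was named after its values were seen. mt-Atp8, a subunit of ATP synthase whose gene lies between these ends, was likewise named after its values were seen. It was measured at 1619, 1140, 1052 and 1528 CPM in WT and at 1750, 2018, 1630 and 1689 CPM in KO, without overlap, with a log2 fold change of 0.41 (interval 0.10 to 0.72) that was not called (adjusted p = 0.153, edgeR). mt-Rnr1, the small ribosomal RNA at the start of the series, had a log2 fold change of 1.19 (SE 0.30, adjusted p = 0.0699, edgeR), with KO replicate 2 at 5074 CPM and the other KO libraries at 1935 to 2551 CPM. mt-Rnr2, the large ribosomal RNA between mt-Rnr1 and mt-Nd1, did not share this and stood at -0.09, with an interval of -0.44 to 0.26. The values therefore followed no single order along the genome. mt-Co1 was no longer called once the length and GC trend had been removed (0.42, adjusted p = 0.459, over all alternatives 0.000255 to 0.459) and mt-Rnr1 then passed the threshold (0.96, adjusted p = 0.0483, over all alternatives 0.0106 to 0.269).

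**Figure D3:**
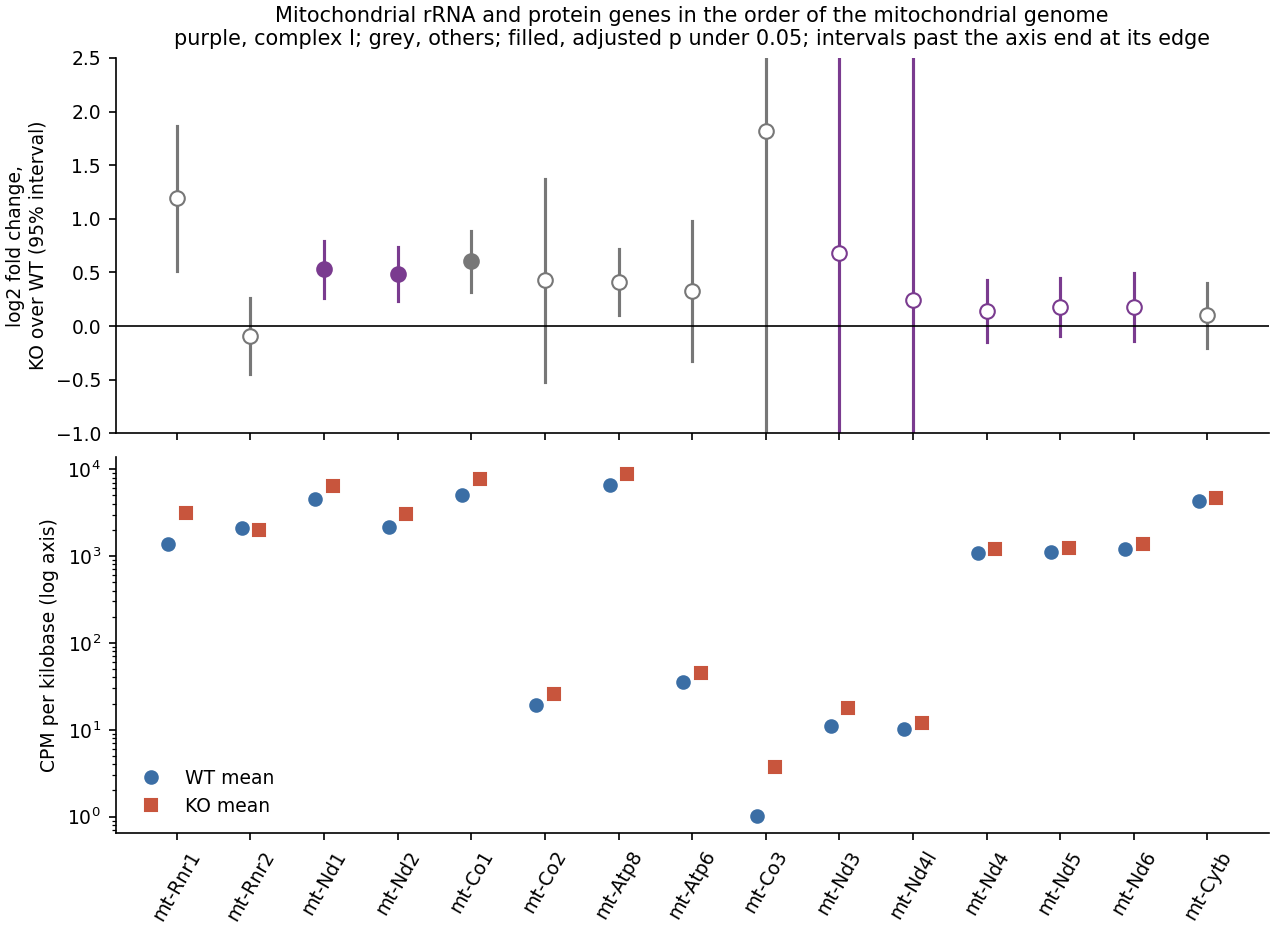
Mitochondrial rRNA and protein genes from left to right in genome order, with the log2 fold change of KO over WT and its 95% interval above, and the mean CPM per kilobase of each group on a log axis below. mt-Nd1, mt-Nd2 and mt-Co1 are filled (0.48 to 0.60), mt-Nd4, mt-Nd5, mt-Nd6 and mt-Cytb lie at 0.10 to 0.18, mt-Atp8 lies between them at 0.41, mt-Rnr2 lies below 0, and 5 genes are counted under 50 CPM.

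The low values of mt-Nd3 (chrM:9459-9806, + strand) and mt-Nd4l (chrM:9877-10173, + strand) stand apart from their neighbours. mt-Nd3 was measured at 3.10, 4.83, 0 and 7.49 CPM in WT and at 6.93, 5.95, 6.88 and 5.14 CPM in KO; for the library with no read, WT replicate 3, a count of 0 allows up to 0.449 CPM (3 counts, counting error only). mt-Nd4l was measured at 2.76, 1.553, 5.98 and 1.89 CPM in WT and at 2.44, 5.79, 1.90 and 4.27 CPM in KO. The groups overlapped for both, and the intervals of the log2 fold change, -1.98 to 3.35 and -2.60 to 3.08, hold no information on a change. The genes mt-Co2, mt-Atp6 and mt-Co3 were equally low, at a WT mean of at most 24.2 CPM, while the other 10 mitochondrial rRNA and protein genes were at 630 CPM or more.

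All 5 low genes have an annotated nuclear pseudogene on mouse chromosome 1 that is identical or nearly identical over almost their full length. Transcripts were compared by BLAST, counting alignments of at least 100 bases at 95% identity or more. Gm28438 matched 345 of the 348 bases of mt-Nd3 at 99.7% identity, and Gm10222 matched 294 of the 297 bases of mt-Nd4l at 100%. The first 33 bases of mt-Nd3 (chrM:9459-9491) and of its copy (chr1:24613087-24613119, - strand) are shown because they hold the substitution T3C, counted from the first base of mt-Nd3, in capitals:
mt-Nd3: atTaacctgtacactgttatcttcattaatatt
Gm28438: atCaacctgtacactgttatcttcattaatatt

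A copy did not always go with a low count. mt-Co1 is covered over all its 1545 bases by Gm13340 on chromosome 2 at 97.6% identity, and over 483 bases by Gm29216 on chromosome 1 at 99.8%, yet its WT mean was 7860 CPM. Gm13340 itself held 483 counts over the 8 libraries and Gm29216 held 15, so the level of mt-Co1 is uncertain too.

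The other mitochondrial members differed in this respect. mt-Nd1 and mt-Nd6 had no such copy. mt-Nd2 was matched by Gm13339 over 510 of its 1038 bases at 96.7%, and mt-Nd5 by Gm4076 over 954 of 1824 bases at 95.2%. mt-Nd4 was identical to Gm28439 over 876 of its 1378 bases, and its level relative to the remaining 502 bases would be 3002 CPM per kilobase in WT, against 1094 over the whole gene. The mt-Nd2 bases at chrM:4442-4501 and their copy at chr2:22590474-22590533 (- strand) show how few differences separate some stretches, with T579C, counted from the first base of mt-Nd2, in capitals:
mt-Nd2: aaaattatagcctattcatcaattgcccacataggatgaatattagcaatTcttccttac
Gm13339: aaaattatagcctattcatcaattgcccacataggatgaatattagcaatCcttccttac

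The copies themselves were counted at 2 reads for Gm28438, 27 for Gm10222 and 3 each for Gm13339 and Gm28439, summed over the 8 libraries. How reads that match several places were counted is not given in the sources used here, and the part of these copies in the low values was not tested. Levels of mt-Nd2, mt-Nd3, mt-Nd4, mt-Nd4l and mt-Nd5 are therefore uncertain. Genes also overlap: mt-Nd4l and mt-Nd4 share 7 bases on the same strand, capitals below, at chrM:10144-10173 and chrM:10167-10196, and mt-Nd5 and mt-Nd6 share 14 bases on opposite strands. The strand setting of the counting is not given in the sources used here, and reads of mt-Nd6 and of transcripts antisense to it cannot be told apart. The junction of the first pair reads:
mt-Nd4l 3′ end: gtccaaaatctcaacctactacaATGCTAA
mt-Nd4 5′ end: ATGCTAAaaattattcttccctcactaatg

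Among the nuclear members, Ndufa11 (chr17:56717767-56722141, + strand) was the only one called. Ndufa11 is a membrane subunit that lies at the contact of complex I with complex III in mammalian supercomplexes. It was measured at 23.3, 30.2, 26.2 and 21.3 CPM in WT and at 53.1, 51.0, 40.1 and 61.3 CPM in KO. Every KO library was above every WT library, with a WT mean of 25.2 ± 3.9 CPM and a KO mean of 51.4 ± 8.7 CPM (SD, n = 4). The fold was 2.04 (log2 1.03, SE 0.26, adjusted p = 0.0356, edgeR). No copy or overlapping gene was found for it. The call held without WT replicate 2 and was lost without each of the other 7 libraries, with the log2 fold change between 0.92 and 1.13 throughout, and was lost at 0.71 with the length and GC trend removed.

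Ndufa10 (chr1:92439010-92473860, - strand), a subunit of the membrane arm with the fold of a nucleoside kinase, followed. It was measured at 51.1, 71.2, 44.0 and 53.0 CPM in WT and at 75.5, 87.4, 85.1 and 99.99 CPM in KO. The groups did not overlap, WT replicate 2 came nearest to the KO range, and the log2 fold change was 0.67 (SE 0.21), which missed the threshold (adjusted p = 0.0999, edgeR). With sample weights in limma voom it passed (adjusted p = 0.0496, over all alternatives 0.0496 to 0.428). Ndufa10 and Ndufa11, the nuclear members with the smallest p, have in common that their promoters hold a perfect cyclic AMP response element, TGACGTCA. The pair was picked by its p, so this is a description.

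Promoter sequences from RefSeq (GRCm38.p6, 300 bases around the gene start) were found for 33 of the 38 nuclear members. TGACGTCA was in 3 of them, Ndufa10, Ndufa11 and Ndufb2, or 9.09%, against 2.03% of 27025 genes with a promoter sequence. These 27025 were not limited to genes tested here, so the shares do not set the members against other expressed genes. Of the 3 members with TGACGTCA, Ndufb2 had the lowest fitted log2 fold change of the nuclear subunits, -0.17 (interval -0.83 to 0.50). The motif of NRF1, a factor known to drive respiratory chain genes, searched as GCGCA and GCGC with 1 base between, was in 7 (21.2%, against 5.19% of all), AANATGGCG, a motif of YY1, in 7 (21.2%, against 2.76%), and CCGGAAG, an ETS motif, in 4 (12.1%, against 9.93%). TCAAGGTCA, an element of the estrogen-related receptors, and TGATGNAAT, an element bound by ATF4 with its partners, were in 0 of the 33, against 0.466% and 1.08% of all. Both strands were searched, and a match is a run of letters, not a shown site. The promoters of the pair are printed with NRF1 and cyclic AMP response element matches in capitals, at chr17:56717512-56717811 (+ strand) and chr1:92473709-92474008 (- strand):
Ndufa11: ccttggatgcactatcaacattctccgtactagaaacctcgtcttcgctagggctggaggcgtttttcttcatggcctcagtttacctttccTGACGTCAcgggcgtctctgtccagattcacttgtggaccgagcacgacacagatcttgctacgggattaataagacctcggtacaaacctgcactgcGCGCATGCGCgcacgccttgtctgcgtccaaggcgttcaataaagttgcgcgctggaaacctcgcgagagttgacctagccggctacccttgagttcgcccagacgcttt
Ndufa10: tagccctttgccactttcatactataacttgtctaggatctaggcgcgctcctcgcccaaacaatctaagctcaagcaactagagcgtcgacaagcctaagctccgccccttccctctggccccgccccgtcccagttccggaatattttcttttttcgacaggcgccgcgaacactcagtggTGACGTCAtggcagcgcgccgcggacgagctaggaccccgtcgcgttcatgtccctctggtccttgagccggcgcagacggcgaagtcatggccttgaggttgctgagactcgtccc

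The 7 nuclear core subunits carry the electron path. None was called, against 3.63% of all genes tested, a share at which 0 of 7 is no result about them, and their median log2 fold change was 0.39, beside 0.01 over all genes tested. Ndufv1, the subunit that binds NADH and holds the flavin, was measured at 112.8, 107.4, 77.9 and 95.8 CPM in WT and at 139.1, 122.0, 113.9 and 140.2 CPM in KO. The groups did not overlap, by a margin of about 1 CPM between WT replicate 1 and KO replicate 3, and the log2 fold change was 0.39 (SE 0.17, adjusted p = 0.293, edgeR). Of the 38 nuclear members 6 had all KO libraries above all WT libraries (15.8%, against 6.94% of all genes tested), and 0 had all below (4.67% of all genes). Among them were Ndufa11, Ndufa10, Ndufv1, Ndufb9 and Ndufs4.

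**Figure D4:**
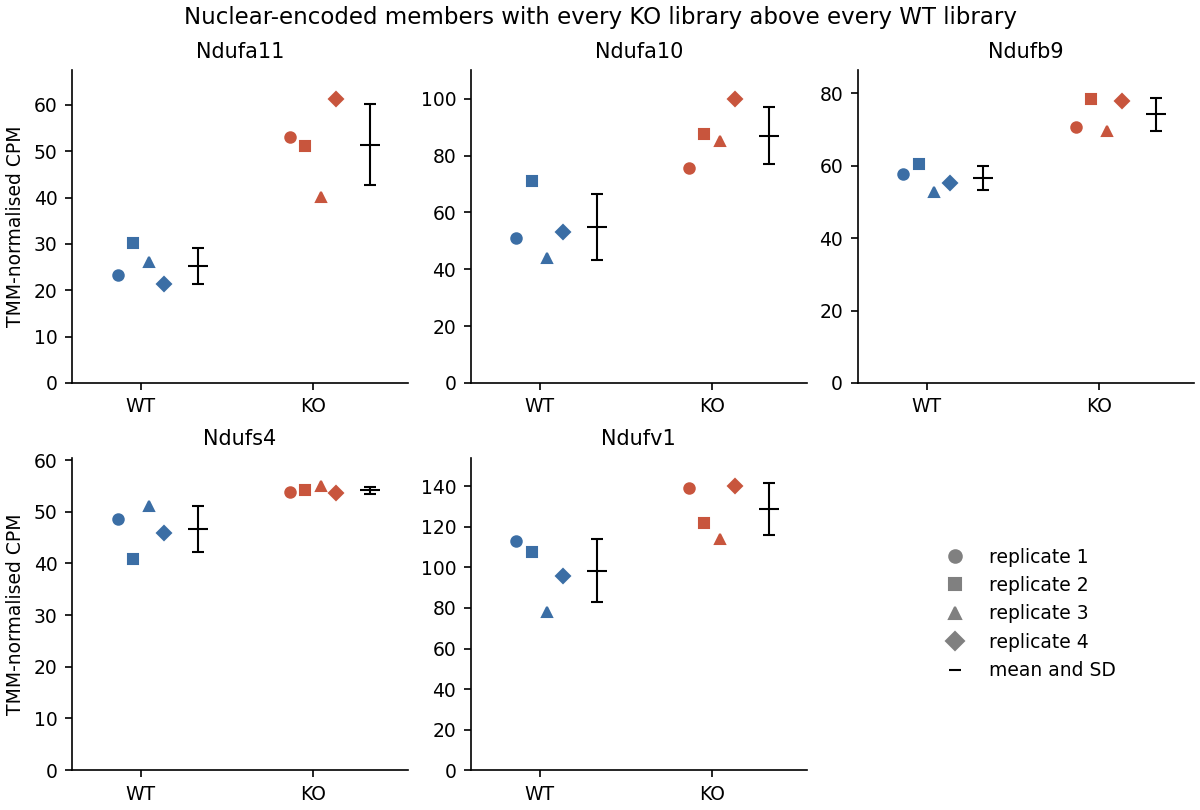
TMM-normalised CPM by library for 5 nuclear members in which every KO library lay above every WT library, each panel from 0, with the mean and SD of 4 libraries as bars. The panels were chosen for this separation; of the 5, Ndufa11 passed the threshold, and in Ndufv1 and Ndufs4 the groups nearly touch.

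In the core subunits that follow the groups overlapped. Ndufs3, at the foot of the matrix arm, had a log2 fold change of 0.52 (interval -0.05 to 1.09), with WT replicates 2 and 3 at 26.6 and 24.7 CPM and the other 6 libraries at 40.5 to 55.2 CPM. Ndufs1, the largest core subunit and a carrier of several iron-sulfur clusters, stood at 0.47 (interval -0.03 to 0.98), and WT replicate 3, at 60.5 CPM, lay within the KO range of 55.1 to 70.1 CPM. Ndufv2, which holds an iron-sulfur cluster beside the flavin subunit, stood at 0.22 (interval -0.30 to 0.74). Ndufs8, an iron-sulfur subunit on the way to the quinone site, stood at 0.13 (interval -0.37 to 0.63). Ndufs7, which holds the last cluster before ubiquinone, stood at 0.03 (interval -0.72 to 0.78) and ranged from 15.3 CPM in WT replicate 2 to 64.0 CPM in WT replicate 1. Its sign turned, to values between -0.0067 and -0.24, with RLE factors, library totals, DESeq2, removal of the length and GC trend, or WT replicate 2 or KO replicate 3 left out.

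The 29 supernumerary nuclear subunits, counting the acyl carrier Ndufab1, complete the nuclear set. For the 9 of the matrix arm the fitted log2 fold changes had a median of 0.15 and a range of 0.03 to 0.45, for the 9 of the proximal membrane arm a median of 0.23 and a range of 0.05 to 1.03, and for the 10 of the distal membrane arm a median of 0.20 and a range of -0.17 to 0.67. Differences between these groups were not tested. Outside Ndufa11, 0 of them were called in either direction, against 3.63% of all genes tested. Ndufs4, a matrix-arm subunit whose loss causes a Leigh-like disease in mice, was named after its values were seen for its small spread: 53.8, 54.2, 55.0 and 53.6 CPM in KO, with WT at 48.6, 40.9, 51.1 and 45.9 CPM and a log2 fold change of 0.22 (adjusted p = 0.769, edgeR).

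On the distal membrane arm, Ndufb7, an intermembrane-space subunit held by disulfide bonds, was measured at 47.7, 31.7, 27.5 and 51.0 CPM in WT and at 47.0, 69.6, 63.1 and 71.0 CPM in KO. KO replicate 1 lay within the WT range, and the log2 fold change was 0.67 (SE 0.26, adjusted p = 0.207, edgeR). Ndufb9, a subunit of the LYR family that binds the acyl carrier protein, was measured at 57.8, 60.6, 52.8 and 55.2 CPM in WT and at 70.8, 78.5, 69.6 and 77.8 CPM in KO. Its groups did not overlap and were among the tightest, with coefficients of variation of 5.91% and 6.28%, and the log2 fold change was 0.39 (SE 0.19, adjusted p = 0.353, edgeR). Ndufb6 was measured at 36.1, 34.7, 13.8 and 42.6 CPM in WT and at 40.3, 36.2, 37.9 and 71.5 CPM in KO, so that its log2 fold change of 0.54 (interval -0.19 to 1.27) rested on a low WT replicate 3 and a high KO replicate 4. Its last 257 bases overlap Smim27 on the opposite strand, and reads of the pair cannot be told apart. Ndufb11, an X-linked subunit, had the highest nuclear level and a log2 fold change of 0.05 (interval -0.36 to 0.46), which turned below 0 when WT replicate 4, KO replicate 3 or KO replicate 4 was left out, and also once the length and GC trend was taken out.

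Elsewhere in the shell, Ndufa8, another disulfide-bonded subunit of the intermembrane space, stood at 0.41 (interval -0.02 to 0.85, adjusted p = 0.364, edgeR), with WT replicate 2 at 65.4 CPM and the other 7 libraries at 95.1 to 151.4 CPM. Ndufa7, a matrix-arm subunit, stood at 0.45 (interval -0.16 to 1.07), and Ndufc2, a small membrane subunit, at 0.21 (interval -0.21 to 0.63). The 95% interval of the log2 fold change lay within -1 and 1, a change of 2-fold either way, for 27 of the 36 nuclear subunits. It lay wholly above 0 for 5, among them Ndufv1, Ndufb7, Ndufa10 and Ndufa11, before any adjustment for multiple tests, and wholly below 0 for 0. Among all genes tested 8.69% were higher and 6.53% lower at an unadjusted p under 0.05. At this depth a nuclear subunit was counted at 73 to 2205 reads in a library.

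Ndufa4, now placed with cytochrome c oxidase, was measured at 152.2, 97.4, 85.2 and 95.7 CPM in WT and at 95.2, 126.3, 109.5 and 180.2 CPM in KO, with a log2 fold change of 0.25 (interval -0.23 to 0.73). Ndufa4l2, a gene known to be induced by hypoxia through HIF, was at 12.2, 0, 0 and 6.67 CPM in WT and at 0, 1.57, 5.14 and 2.75 CPM in KO. It had 0 counts in 3 libraries, which allows up to 0.259 CPM in WT replicate 2, 0.449 in WT replicate 3 and 0.281 in KO replicate 1. The spread was too wide for a statement on its change, and its fitted sign depended on the model.

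The spread between libraries had a common pattern across the nuclear subunits. The lowest of the 8 values was in WT replicate 2 or 3 for 31 of 36 subunits, and the highest was in a KO library for 24. The summed level of the 36 was 2191, 1613, 1796 and 2022 CPM in WT and 2114, 2367, 2314 and 2465 CPM in KO. The groups overlapped, since WT replicate 1 exceeded KO replicate 1. The libraries also differed in Y-linked transcripts: 4 Y-linked genes summed to 153.2, 0.345, 3.44 and 149.9 CPM in WT. In KO they summed to 1.22, 218.6, 1.19 and 172 CPM. Replicates 1 and 4 in WT and 2 and 4 in KO had the higher Y-linked sums. They also had the higher nuclear sums in their group. With the Y-linked level as a covariate the 3 calls stayed. Whether this difference goes with the nuclear spread was not tested. The summed level of the 7 mitochondrial members was 12076, 10241, 9254 and 11243 CPM in WT and 15022, 15513, 12268 and 13186 CPM in KO, without overlap, of which mt-Nd1 and mt-Nd2 made up 61.2% in WT. The mitochondrial sum over the nuclear sum was 5.51, 6.35, 5.15 and 5.56 in WT and 7.11, 6.55, 5.30 and 5.35 in KO, with KO replicates 3 and 4 inside the WT range. Sums weigh the abundant members most. The median over members of the log2 level, less each member's mean over the 8 libraries, separated the other way. For the 36 nuclear subunits it was -0.33 to 0.068 in WT and 0.086 to 0.23 in KO, without overlap. For mt-Nd1, mt-Nd2, mt-Nd4, mt-Nd5 and mt-Nd6 it was -0.36 to 0.10 in WT and 0.017 to 0.35 in KO. Which set separates thus depends on the measure.

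The medians of the fitted log2 fold changes were 0.22 over the 38 nuclear and 0.24 over the 7 mitochondrial members. The second is the value of mt-Nd4l, which holds no information on a change. Over the 5 well-counted mitochondrial members, a choice made after seeing the data, the median was 0.18. The nuclear minus mitochondrial difference was then 0.04, against -0.03 with all 7, so its sign depends on this choice. Over single omissions it ran from -0.06 to 0.12 with the 5 and from -0.26 to 0.12 with the 7, and both ranges span 0. Beside them stands 0.01 over all genes tested. Once the length and GC trend was taken out the medians were -0.009 (nuclear), 0.029 (mitochondrial) and -0.098 (all genes). Relative to all genes the shift of the nuclear members was then 0.09, against 0.20 without the removal. The summed level of 8 alveolar type 2 markers, all of them detected, was 21841, 3684, 9159 and 16540 CPM in WT. That is the order of the nuclear sum. The summed markers of alveolar type 1 cells, leukocytes and cardiomyocytes had the same order in WT. Those of the other cell types, fibroblasts and smooth muscle among them, did not. In KO the alveolar type 2 sum was 3558, 10677, 15950 and 6633 CPM. There KO replicates 1 and 2 had the same rank as in the nuclear sum, while KO replicates 3 and 4 did not. With this marker level as a covariate the nuclear median was 0.30 and the median of the 5 well-counted mitochondrial members 0.20, and the 3 calls stayed. Markers of cardiomyocytes, cells rich in mitochondria, summed to 5.61 to 44.3 CPM in WT and 29.6 to 95.5 CPM in KO over 8 genes, with Nppa at 0 in 7 libraries and Tnni3 at 0 in 6. Of the 6 cardiomyocyte markers tested, 5 had a fitted log2 fold change above 0, against 51.0% of all genes tested, with a median of 1.64 and 0 called. Markers of platelets and megakaryocytes summed to 5.98 to 35.2 CPM in WT and 13.2 to 53.3 CPM in KO over 5 genes. All 4 of those tested had a fitted log2 fold change above 0, with a median of 0.92 and 0 called. Gp1bb was at 0 in every WT library and in KO replicates 1 and 4. The part of RNA from either cell type in the members' values was not tested.

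Per kilobase of exon, the level in WT ran from 4493 ± 484 CPM for mt-Nd1 to 5.58 ± 1.48 for Ndufs1 among subunits (SD, n = 4). mt-Nd2 was at 2167 ± 225, mt-Nd6 at 1214 ± 209, mt-Nd5 at 1102 ± 144 and mt-Nd4 at 1094 ± 138 CPM per kilobase. The last 3 overlapped in their library ranges, and Ndufb11, the highest nuclear member, was at 132 ± 23. mt-Nd4 was thus 8.31 times Ndufb11 per kilobase, and mt-Nd1 133 times the nuclear median of 33.7. Of 44 pairs of neighbours in this order, 3 did not overlap between libraries: mt-Nd1 and mt-Nd2, mt-Nd2 and mt-Nd6, and mt-Nd4 and Ndufb11. The nuclear order depends on the exon length used. Ndufs1 came last with all annotated exons joined (8086 bases), and Ndufb2, at 7.23, with the longest transcript of each gene. Ndufa4l2, at 4.31 ± 5.39, was below both.

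**Figure D5:**
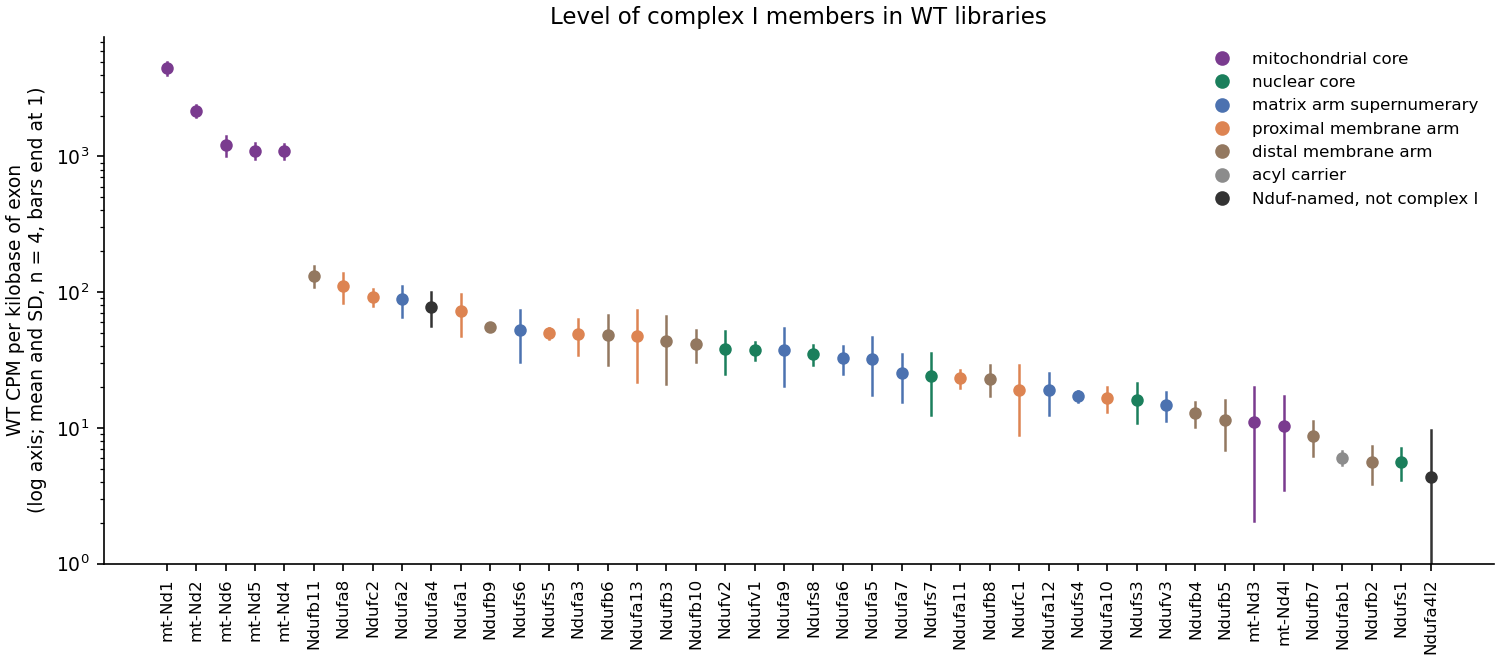
WT level of the members in CPM per kilobase of annotated exon, on a log axis, as mean and SD of 4 libraries, from highest to lowest and coloured by role. The mitochondrial members mt-Nd1, mt-Nd2, mt-Nd6, mt-Nd5 and mt-Nd4 stand above all nuclear members, while mt-Nd3 and mt-Nd4l, which have near-identical nuclear copies, are among the lowest.

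Near-identical copies and overlapping genes also touch some nuclear members. A pseudogene copy was annotated for 7 of the 36 subunits, Ndufa12, Ndufab1, Ndufb11, Ndufb4, Ndufs3, Ndufs5 and Ndufs6, and none of these copies held more than 21 counts over the 8 libraries. A gene on the opposite strand shares exonic bases with Ndufa13, Ndufb2, Ndufb5, Ndufb6, Ndufb11 and Ndufs1, whose values are uncertain for that reason.

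The genes that build complex I or express mitochondrial DNA were read against the same background of 3.63% called, so that 0 calls in lists of this size are no result about them. Of 19 assembly factors tested 0 were called, with a median log2 fold change of 0.27. Tmem126b, a factor that assembles the membrane arm, had the smallest p among them: 20.4, 14.9, 19.0 and 16.4 CPM in WT and 3.37, 9.24, 10.8 and 8.40 CPM in KO, without overlap, at -1.15 (SE 0.52, adjusted p = 0.300, edgeR). Dmac1, another membrane-arm factor, stood at 0.53 (SE 0.31, adjusted p = 0.488, edgeR). Of 26 genes for replication and transcription of mitochondrial DNA and for processing, stability and decay of its transcripts 0 were called. Their median was -0.02. Lrpprc, which stabilises mitochondrial messenger RNAs, stood at 0.78 (SE 0.27, adjusted p = 0.139, edgeR), with 20.1 to 36.3 CPM in WT and 43.6 to 67.7 CPM in KO. Tfam, the packaging and transcription factor of mitochondrial DNA, stood at 0.44 (SE 0.28, adjusted p = 0.535, edgeR).

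The nuclear genes of the other respiratory complexes, with mt-Cytb, had medians above that of all genes. In either direction 0 were called, against 3.63% of all genes tested, which in lists of this size is no result about them. mt-Co1 of complex IV, called above, is not in these lists. The median log2 fold change was 0.19 over 4 genes of complex II, 0.38 over 9 of complex III, which leave out Uqcrq and include mt-Cytb, 0.38 over 12 nuclear genes of complex IV and 0.36 over 16 of complex V, beside 0.22 for the nuclear complex I members. The mean over complex IV was -0.10, of the other sign than its median, because single members were low. Atp5b, the catalytic subunit of ATP synthase, was nearest to the threshold, at 0.43 (SE 0.12, adjusted p = 0.0542, edgeR), with 647 to 741 CPM in WT and 860 to 1041 CPM in KO. It passed the threshold in 7 of 23 alternatives: DESeq2, both forms of limma voom, edgeR's newer dispersion option, both covariates, and without KO replicate 1 (adjusted p over all alternatives 0.00256 to 0.602). Atp5o, which joins the parts of that enzyme, stood at 0.56 (SE 0.16, adjusted p = 0.0727, edgeR) and passed in 2, DESeq2 and the alveolar type 2 covariate (over all alternatives 0.0295 to 0.63). Of the 16 complex V genes up to 3 were called in the alternatives. Cox7c stood at 0.74 (SE 0.22, adjusted p = 0.0826) and Cox5b at 0.71 (SE 0.22, adjusted p = 0.0962), both subunits of cytochrome c oxidase (edgeR). Uqcrh and Uqcrc1 of complex III stood at 0.47 and 0.38, and Sdhd and Sdhb of complex II at 0.40 and 0.21, none of them called. Once the length and GC trend was taken out these medians were 0.01, 0.16, 0.11 and 0.13 for complexes II to V.

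Of 20 other genes that feed or use NADH or ubiquinone in mitochondria and the cytosol, 1 was called, against 3.63% of all genes tested. At that share 1 of 20 is no result about the list. Got1, the cytosolic aspartate aminotransferase of the malate-aspartate shuttle, was measured at 1.67, 4.399, 7.48 and 7.08 CPM in WT and at 42.5, 19.7, 40.5 and 16.2 CPM in KO. All KO libraries lay above all WT libraries, and the log2 fold change was 2.53 (SE 0.53, adjusted p = 0.0123, edgeR). The median of the 20 was 0.15. The call of Got1 was lost with the length and GC trend removed, at 2.29 (adjusted p = 0.0563, over all alternatives 0.000426 to 0.111).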

How the data were processed

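Bulk RNA-seq gene counts of 8 libraries, 4 WT and 4 KO, were analysed, with groups and replicate numbers from the sample titles. The authors deposited whole-number read counts for each gene, not normalised, and 0 value columns were left over. The tools were bcl2fastq, TopHat, HTSeq and edgeR and the build mm10, per the submitters' processing notes. Not given in the sources used here were their versions, the annotation, the strand setting and any filters. Per the labels' protocols RNA was column-purified with DNase and libraries followed a standard Illumina protocol. Of 43430 Ensembl IDs 42462 had a symbol in GENCODE M21, and IDs without one took at most 0.101% of a library's counts.

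Counts were filtered with filterByExpr (minimum count 10, minimum total 15) and scaled with TMM, and KO was compared with WT over 12689 genes with edgeR 4.0.16 in R 4.3.3 (quasi-likelihood F test, robust, genotype only) and called at a Benjamini-Hochberg adjusted p under 0.05, whatever the fold. CPM values are TMM-normalised. SEs come from the F statistic, and intervals are at 95%. The common biological coefficient of variation was 63.5%. Replicates of a group differed beyond sampling noise, with chi-square values of 32.4 to 74.6 per degree of freedom. Reads carry no molecular identifiers, so floors of 3 counts cover counting error only. The steps were tested on simulated data.

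The members and gene lists were chosen with earlier results of these data known. 1 member is counted but not reported here. Described in full were Uqcrq, the mitochondrial and nuclear core members, every called member, the 8 further nuclear members with the smallest p, the nuclear members with the highest and lowest fold change and level, Ndufa4 and Ndufa4l2. From each other list every called gene up to 3, otherwise the 2 with the smallest p, were named. Lists were described by counts and medians, with no test of a list. Markers of 11 cell types were summed by library. Copies were searched with BLAST 2.17.0+ at 95% identity over 100 bases. Alternatives were RLE, upper quartile, totals-only and nuclear-gene scaling, no filter, a minimum count of 30, DESeq2 1.42.0, limma voom (3.58.1) with and without sample weights, edgeR's newer dispersion option, the replicate number as a block, Y-linked and alveolar type 2 levels as covariates, removal of each library's trend on exonic length and GC content (splines with 4 degrees of freedom), and leaving out libraries.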

Additional observations from a re-analysis of the deposited data

Results flagged for a closer look

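The check covered 96 sets of 4 libraries: the named members, their sums and ratios, and the named genes of the other lists, in each group. Of these, 2 held a library farther from the rest than Dixon's 95% limit for a group of 4, where chance flags about 1 in 20. Ndufb6 was at 71.46 CPM in KO replicate 4, against 36.2 to 40.3 CPM in the other KO libraries. The ratio of mt-Nd1 to mt-Nd4 was 5.21 in KO replicate 1, against 3.29 to 3.47 in the other KO libraries. KO replicate 1 also had the lowest Uqcrq, at 1.59 CPM. Whether these go together was not tested.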

How the results depend on the processing

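Over all genes 461 were called, against 788 with DESeq2, 747 with the newer dispersion option, 190 with the length and GC trend removed, and 270 to 446 when single libraries were left out, lowest without KO replicate 3. Nuclear members called numbered 2 with sample weights in limma voom (Ndufa10 besides Ndufa11), 0 with the length and GC trend removed, 0 without WT replicate 3 and KO replicate 1 together, and 0 to 1 over single omissions. Mitochondrial members called numbered 1 with RLE factors, 0 with the length and GC trend removed, 0 without WT replicate 3 and KO replicate 1 together, and 0 to 2 over single omissions. A fit with 7 libraries has fewer samples by construction.

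No sign of pairing by replicate number was seen: deviations of same-numbered libraries correlated at -0.10, -0.10, -0.01 and 0.004, and 0 of 4 numbers correlated best with their own. Such correlations can miss a pairing, and the labels do not settle it. With the number as a replicate block 0 nuclear and 1 mitochondrial members (mt-Nd1) were called, and Ndufa4l2 stood at 1.59.

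The nuclear median log2 fold change was -0.0087 and the mitochondrial median 0.029 with the length and GC trend removed, where the median of all genes was -0.10. The mitochondrial median ran from 0.11 to 0.46 over single omissions, highest without KO replicate 3. With mt-Nd3 and mt-Nd4l left out of it, an alternative added after seeing the data, it was 0.18 and ran from 0.10 to 0.26, and the nuclear minus mitochondrial difference was 0.04, since mt-Nd4l alone is the median of the 7. The nuclear minus mitochondrial difference was -0.24 with the newer dispersion option and ran from -0.26 to 0.12 over single omissions. Among the members described in full, signs turned with the length and GC trend removed for mt-Nd4 (-0.049), mt-Nd4l (-0.30) and mt-Nd6 (-0.047). Of the nuclear ones described in full they turned for Ndufs7 (-0.20), Ndufs8 (-0.15), Ndufc2 (-0.13) and Ndufb11 (-0.37). Further nuclear members turned as well, as the count above 0 given earlier shows. Ndufs7 was at -0.0067 with RLE factors, -0.022 with library totals and -0.0068 with DESeq2, and ran from -0.24 to 0.33 over single omissions. Ndufa4l2 was at 0.39 with limma voom, 0.59 with sample weights, 1.05 with the Y-linked level, 2.88 with the alveolar type 2 level, and -1.70 to 0.087 over single omissions. Single omissions gave -0.081 to 0.80 for mt-Nd4l, -0.048 to 0.19 for Ndufb11 and -0.20 to 0.0072 for mt-Rnr2. The causes were not tested. Uqcrq stayed negative (-1.80 to -1.06) and uncalled in all 23 alternatives. Counts of 0 to 91 reads limit mt-Nd3 and mt-Nd4l.

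DESeq2 gave no adjusted p for 3 members. The lowest nuclear subunit per kilobase changed from 5.58 to 7.23 CPM with the longest transcript.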
